A study of Mus musculus with 12 samples.

Results

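The 10 apolipoprotein genes Apoa1, Apoa2, Apoa4, Apoa5, Apob, Apoc1, Apoc2, Apoc3, Apoe and Apom were chosen by name, and all 10 were among the 11968 genes of the deposited count table. Poly(A) RNA was sequenced from whole livers of C57BL/6J mice, an inbred strain, with 3 livers in each of 4 groups: females on chow, females on statin, males on chow and males on statin. Mice were 8 to 10 weeks old at the start and had no genetic change. They ate chow or chow with simvastatin, an inhibitor of cholesterol synthesis, for 4 weeks, and the labels give 0.1 g/kg of body weight where the study's methods give 0.1 g/kg of food. The study asked how the sexes differ in their response to a statin, so each gene was compared between statin and chow within each sex, and the difference between those effects (the interaction) was tested. A log2 fold change is called a log2 change here. On chow and on statin, females were also compared with males, so the comparisons share livers.

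Apolipoproteins are the protein part of lipoproteins, the particles that carry cholesterol and triglyceride in blood. Hepatocytes make most of them. ApoB forms the frame of very-low-density and low-density lipoproteins, ApoA-I and ApoA-II the frame of high-density lipoprotein (HDL), and the small C proteins, ApoA-V and ApoE move between particles and set how fast lipases and receptors act on them.

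Apoa4 had the largest ratio of highest to lowest liver of the 10 genes, 3.95-fold, and its statin effect had opposite signs in the sexes: it was 1.67-fold higher on statin than on chow in females and 0.482-fold in males. Apoa1 had the same pattern at a smaller size. No statin effect and no difference between statin effects passed an adjusted p-value of 0.05 for any of the 10 genes in edgeR's quasi-likelihood test, and in DESeq2 3 of these tests did, for Apoa4 in males and for the difference of Apoa4 and of Apoa1. Between the sexes, Apoa1 was lower in females than in males on chow, and Apoa4 was higher in females than in males on statin, and both of these differences passed.

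Apoa1, Apoc3, Apoa4 and Apoa5 lie in that order within 43340 bases of chromosome 9 (GRCm38, GENCODE vM21). Apoa1 is at chr9:46228580-46230466 on the plus strand, Apoc3 at chr9:46232933-46235636 on the minus strand, Apoa4 at chr9:46240696-46243459 and Apoa5 at chr9:46268633-46271919, both on the plus strand. Apoc2 at chr7:19671579-19677941, Apoc1 at chr7:19689481-19692660 and Apoe at chr7:19696109-19699188 form a second cluster, all on the minus strand, over 27610 bases of chromosome 7. Apoa2 (chr1:171225054-171226379, plus strand), Apob (chr12:7977648-8016835, plus strand) and Apom (chr17:35128997-35132050, minus strand) stand alone. Apoc3, which lies between Apoa1 and Apoa4, had log2 changes with statin of 0.27 in females and -0.03 in males (standard error 0.20 for each); the difference from its neighbours was not tested.

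The sequences upstream of Apoa4 and Apoa1 are shown because these are the 2 genes with an unadjusted p-value under 0.05 for the difference between the statin effects of the sexes (edgeR). They come from RefSeq promoters of GRCm38.p6, which held 8 of the 10 genes (not Apoc1 and Apoc3), and are given 5′ to 3′ on the plus strand up to the base before the GENCODE gene start. Capitals mark a match to CAAAGTNCA, a form of the site bound by HNF4, a nuclear receptor that drives many hepatocyte genes. The Apoa4 stretch is chr9:46240594-46240695 and the Apoa1 stretch is chr9:46228380-46228579.
Apoa4: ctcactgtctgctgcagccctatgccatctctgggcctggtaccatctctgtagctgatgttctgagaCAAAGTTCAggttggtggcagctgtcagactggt
Apoa1: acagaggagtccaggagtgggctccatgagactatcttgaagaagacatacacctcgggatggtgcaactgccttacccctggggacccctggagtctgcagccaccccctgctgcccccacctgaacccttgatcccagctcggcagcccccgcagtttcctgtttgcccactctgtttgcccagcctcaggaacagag

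The motif search covered the 250 bases before each RefSeq start of a gene on both strands. Apoa2, Apoa5 and Apoe had more than 1 such window, while the shares given are per window. The Apom window, chr17:35131802-35132051, lay within the GENCODE gene except for 1 base. CAAAGTNCA was found in Apoa4 alone among the 8 genes, at bases -182 to -174, and in 1.19% of 32851 promoter windows. The sterol regulatory element TCACNCCAC (1.05% of all windows) and the cyclic AMP response element TGACGTNA (2.52%) had no match in the 8 genes. TATAAA (12.4% of all windows) was found in Apoa2, Apoa5, Apob and Apoe. For Apoe it lay in the window chr7:19698622-19698871, which is inside the GENCODE gene. The Apoe window before the GENCODE start, chr7:19699189-19699438, had no match. The half-site AGGTCA (14.0%) was found in Apoa2 and Apoc2, and CCAAT (33.8%) in Apoa2. For Apoa2 the half-site lay in the window chr1:171221314-171221563, farther upstream of the GENCODE start than its other window, chr1:171224804-171225053. These motifs do not contain each other. A match describes letters in a window and not binding.

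The livers were sequenced to between 46066381 and 60419223 counts, at which 3 counts, a floor for counting error only, equal 0.0497 to 0.0651 CPM (counts scaled to a common library total), and 9 of the 10 genes lay far above that floor in every liver, with Apoc2, at about 1 to 2 CPM, nearest to it. The hepatocyte markers Alb, Ttr, Serpina1a, Cps1, Hnf4a and Cyp2e1 summed to between 96264 and 122725 CPM per liver in females on chow, 114240 and 144664 in females on statin, 77323 and 119341 in males on chow and 83569 and 93987 in males on statin. On statin the sexes did not overlap for this sum, as for Apoa4 and Apom. Nor did they overlap on statin for the sums of Kupffer cell and lymphocyte markers, given below and higher in females. Pancreas markers also did not overlap on statin (5.36 to 9.96 CPM in females, 11.97 to 16.78 in males). The part of these 4 marker sets in those differences was not tested. The 10 Kupffer cell and macrophage markers summed to between 661 and 822 CPM in females on chow, 557 and 962 in females on statin, 362 and 583 in males on chow and 371 and 465 in males on statin. None of those 10 had an unadjusted p-value under 0.05 in either statin comparison or in the interaction (edgeR). Of the 6 hepatocyte markers 1 did in females and 1 in the interaction, of the 6 stellate cell markers 1 in females, and of the 5 red cell markers 1 in males. The 6 stellate cell markers summed to 305 to 365 CPM in females on chow, 207 to 318 in females on statin, 190 to 217 in males on chow and 188 to 246 in males on statin, and the 6 sinusoidal endothelium markers to 314 to 317, 258 to 347, 206 to 265 and 222 to 295 in the same order. On chow the sexes did not overlap for the Kupffer, stellate or endothelial sums, as for Apoa1, Apoa2 and Apom. The same held for the intestine markers given below and for cholangiocyte markers (30.7 to 45.8 CPM in females, 26.9 to 29.4 in males). It also held for red cell markers (173 to 191 and 232 to 251) and pancreas markers (7.01 to 8.14 and 9.41 to 15.1). The part of all these markers in those differences was not tested. The 5 lymphocyte markers summed to 1.98 to 3.10 CPM in females on chow, 4.25 to 6.18 in females on statin, 1.74 to 3.20 in males on chow and 2.23 to 3.43 in males on statin. The part of these markers in the statin effects was not tested. Intestine also makes Apoa1, Apoa4 and Apob. Of its 5 markers Vil1, Sis, Alpi and Lct stayed under 1 CPM in every liver, and the summed level of the 5 was 41.9 to 52.6 CPM in females on chow, 42.6 to 92.4 in females on statin, 60.5 to 121 in males on chow and 56.2 to 102 in males on statin. In whole liver, fewer cells of a type and less RNA per cell cannot be told apart.

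The 10 genes together took 3.48% ± 0.28 of all counts in females on chow, 3.99% ± 0.25 in females on statin, 4.68% ± 0.15 in males on chow and 4.06% ± 0.27 in males on statin (SD, n = 3). The livers of males on chow, at 4.57% to 4.85%, were all above those of the other groups. On the TMM scale they were not: summed over the 10 genes, males on chow were at 44584 to 47391 CPM and females on statin at 36402 to 45476 CPM. Females on chow and on statin overlapped, at 3.27% to 3.80% and 3.71% to 4.19%. Alb, the gene of serum albumin, took 8.96% ± 1.35, 11.3% ± 1.4, 7.61% ± 2.10 and 6.73% ± 0.39 of the counts in the same order of groups. With the counts of Alb taken out of the total, the shares of the 10 genes were 3.82% ± 0.28, 4.50% ± 0.34, 5.07% ± 0.12 and 4.35% ± 0.31.

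**Figure D1:**
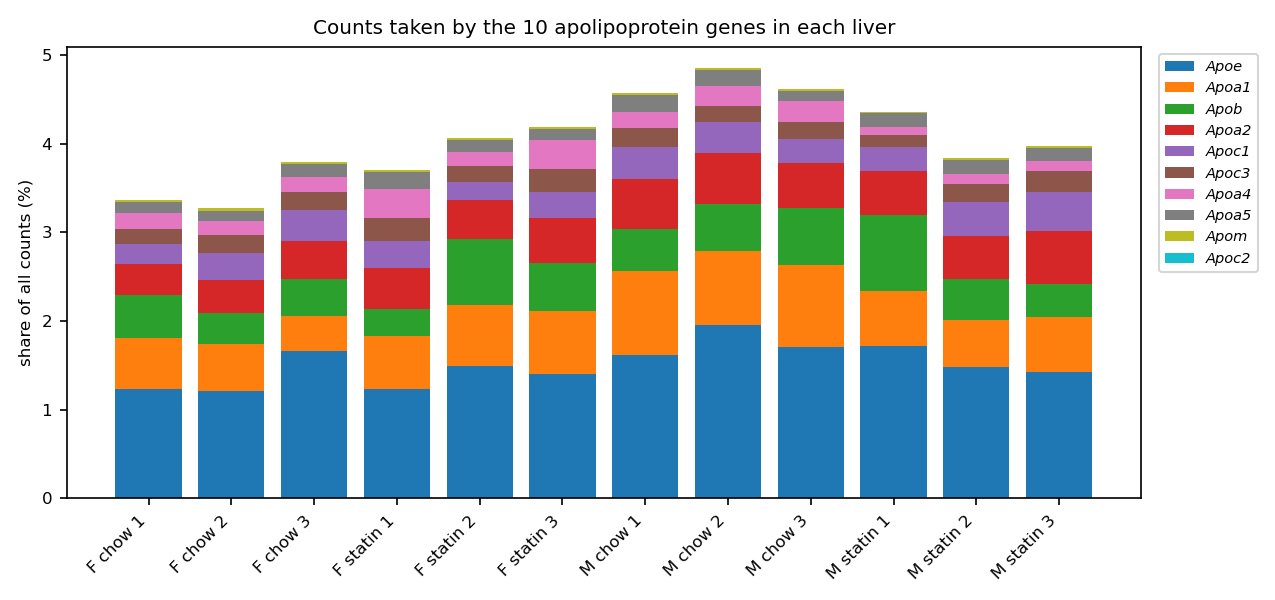
Share of all counts (percent, vertical axis) taken by each of the 10 apolipoprotein genes in each of the 12 livers, stacked (F, female and M, male). Apoe, at the bottom, took the most counts in every liver, and the 3 livers of males on chow had the highest totals, 4.57% to 4.85%.

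Per kilobase of exon, Apoa2 was the most abundant of the 10, with a median of 9049 CPM per kb over the 12 livers, and it ranked 4 among 11954 genes. The length used was all annotated exon bases of a gene, 537 for Apoa2 and 2138 for Apoe, whether or not 1 mRNA holds them all. The order depends on these lengths, and other lengths were not tried. Apoe followed at 7225, Apoa1 at 4927, Apoc1 at 4136, Apoc3 at 1941, Apoa4 at 974, Apoa5 at 567, Apob at 345 and Apom at 229 CPM per kb. Apoa2 was above Apoe, Apoc1 above Apoc3, and Apoc3 above Apoa4 in 12 of 12 livers. Apoe was above Apoa1 in 11 livers, and the difference of 0.42 ± 0.34 on the log2 scale (SD, n = 12) was just over its spread. Apoa1 and Apoc1 did not differ beyond their spread, with a log2 difference of 0.35 ± 0.49 and Apoa1 higher in 9 of 12 livers. Apob and Apom differed by 0.61 ± 0.60 on the log2 scale, just over the spread, with Apob higher in 10 livers. Apoa4 and Apoa5 differed by 0.78 ± 0.65 (10 livers) and Apoa5 and Apob by 0.70 ± 0.57 (9 livers). These differences pool the groups, and in males on statin the means were in the other order for Apoa4 and Apoa5, at 570 and 589 CPM per kb, and for Apoa1 and Apoc1, at 4663 and 4716 CPM per kb. Of the 10 genes, 9 ranked between 4 and 201.

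Apoc2, the activator of lipoprotein lipase, was listed at 0.62 to 2.1 CPM and ranked 7905. Of its 813 exon bases, 646 (79.5%) are also exon of Gm44805, a protein-coding gene model on the same strand, which was listed at 0 in every liver. How reads that fall on both genes were counted is not given in the sources used here, and its part in the low value was not tested, so the value of Apoc2 cannot be read as its level. Apoc4, which neighbours Apoc2, shares 119 of 2537 exon bases (4.69%) with the same model and was at 300 CPM in females on chow. Apoa4 shares 632 of its 1815 exon bases (34.8%) with the antisense gene Gm10680, which was at 0.293% to 0.591% of the Apoa4 level, and the strand setting of the counting is not given. Apoa5 shares 524 bases (20.8%) with the antisense model Gm47544, which is not in the count table.

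ApoA-IV is made in liver and intestine, travels on HDL and on particles rich in triglyceride, and is known to rise in mouse liver when fat accumulates or on fasting. Apoa4 was at 1890, 1542 and 1666 CPM in the 3 females on chow and at 3235, 1732 and 3552 CPM in the 3 females on statin. It was at 1802, 2174 and 2460 CPM in males on chow and at 900, 1064 and 1139 CPM in males on statin. Female statin replicate 2 lay within the range of the females on chow, and the other 2 females on statin lay above it. The males on statin were all below the males on chow.

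In females the log2 change of Apoa4 with statin was 0.74 (standard error 0.24, unadjusted p = 0.00870, adjusted p = 0.266, edgeR). In males it was -1.05 (standard error 0.24, unadjusted p = 0.000826, adjusted p = 1.00, edgeR). The difference between these effects was 1.79 (standard error 0.34, unadjusted p = 0.000172, adjusted p = 0.172, edgeR), a ratio of 3.47-fold. Without female statin replicate 2, the female log2 change was 1.00 with an adjusted p of 0.0350, and the difference between the sexes was 2.04 with an adjusted p of 0.0348 (edgeR). These were the only passes among the 12 fits that left out 1 liver: the female effect ranged from 0.56 to 1.00 with adjusted p up to 0.699, and the difference from 1.60 to 2.04 with adjusted p up to 0.576. DESeq2 on the same counts gave adjusted p-values of 0.0414 for the male effect and 0.000234 for the difference between the sexes, and edgeR on 26304 genes without a filter gave 0.00212 for that difference. The sign of each effect was the same with every liver left out in turn and under every other setting that was run.

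On chow the sexes overlapped in Apoa4, and their difference did not pass (log2 change of females against males -0.34, standard error 0.24, adjusted p = 0.424, edgeR). On statin Apoa4 was higher in females by 1.46 on the log2 scale (standard error 0.24, adjusted p = 0.00337, edgeR), or 2.75-fold, and the groups did not overlap. This difference passed an adjusted p-value of 0.05 in all 12 fits that left out 1 liver (highest 0.0193) and in all 11 other settings (highest 0.0385).

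ApoA-I is the main protein of HDL and the cofactor of LCAT, the enzyme that esterifies cholesterol on HDL. Apoa1 was at 6008, 5139 and 4024 CPM in females on chow and at 5942, 7274 and 7721 CPM in females on statin. It was at 9229, 7982 and 9427 CPM in males on chow and at 6161, 5110 and 6019 CPM in males on statin. The female groups overlapped through female chow replicate 1 and female statin replicate 1, and the male groups did not overlap.

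The log2 change of Apoa1 under statin was 0.46 in females (standard error 0.18, unadjusted p = 0.0231, adjusted p = 0.373, edgeR) and -0.62 in males (standard error 0.18, unadjusted p = 0.00445, adjusted p = 1.00, edgeR). The difference between the effects was 1.09 (standard error 0.25, unadjusted p = 0.00100, adjusted p = 0.277, edgeR). DESeq2 gave an adjusted p of 0.00537 for that difference. On chow, females had lower Apoa1 than males by a log2 change of -0.81 (standard error 0.18, adjusted p = 0.0136, edgeR), a ratio of 0.570. Without male chow replicate 1 the adjusted p was 0.0558, and without male chow replicate 3 it was 0.0529, with log2 changes of -0.78 and -0.77. On statin the sexes overlapped, with a log2 change of 0.28 (standard error 0.18, adjusted p = 0.460, edgeR).

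Apoa4 and Apoa1 were also compared with each other within each liver. The log2 ratio of Apoa4 to Apoa1 was -1.56 ± 0.25 in females on chow, -1.36 ± 0.63 in females on statin, -2.06 ± 0.26 in males on chow and -2.48 ± 0.26 in males on statin (SD, n = 3, on CPM). Statin and chow overlapped for this ratio in both sexes, and a change of the ratio with statin was not tested. The livers of the sexes overlapped on neither diet: on chow it was -1.74 to -1.27 in females and -2.36 to -1.88 in males, and on statin -2.07 to -0.88 and -2.78 to -2.26.

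**Figure D2:**
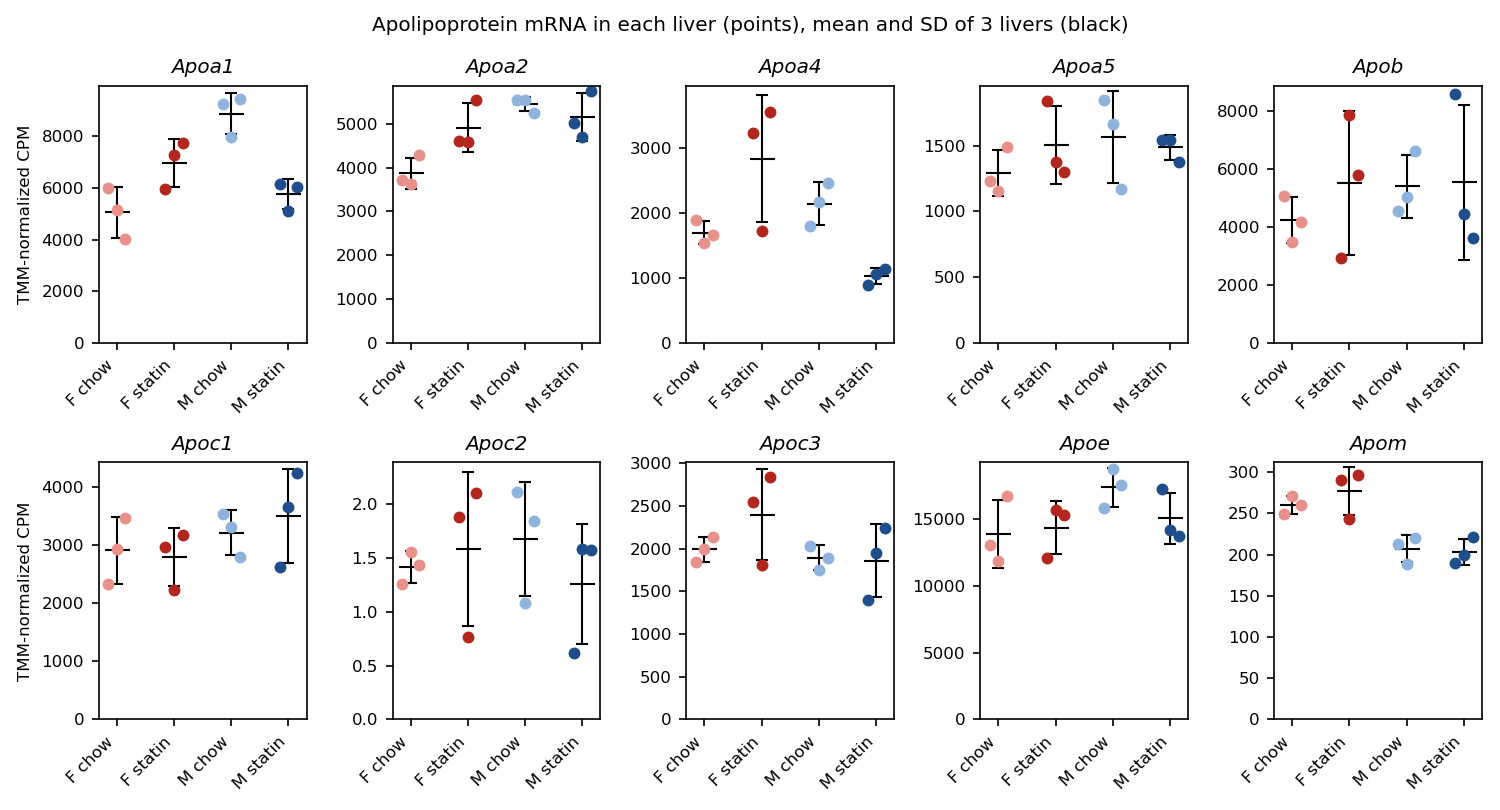
Level of each apolipoprotein gene (TMM-normalized CPM, linear axis from 0) in the 4 groups of 3 livers, with points for livers and black bars for the mean and SD. In males on statin all 3 livers had lower Apoa4 (900 to 1139 CPM) and Apoa1 (5110 to 6161 CPM) than any male on chow, and Apob spread over 3607 to 8584 CPM within that group.

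Apoa2, the second structural protein of HDL, was at 3707, 3632 and 4279 CPM in females on chow and at 4602, 4585 and 5550 CPM in females on statin. It was at 5541, 5532 and 5256 CPM in males on chow and at 5025, 4694 and 5750 CPM in males on statin. The females on chow were below every other liver. Statin and chow did not overlap in females, with a log2 change of 0.34 (standard error 0.15, unadjusted p = 0.0358, adjusted p = 0.427, edgeR). In males the log2 change was -0.08 (standard error 0.15, adjusted p = 1.00, edgeR). On chow the log2 change of females against males was -0.49 (standard error 0.15, unadjusted p = 0.00543, adjusted p = 0.0511, edgeR), and this passed 0.05 in 4 of 11 other settings.

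Apom, a carrier of sphingosine 1-phosphate on HDL, had the smallest SD of log2 deviations from the group means over the 12 livers, 0.10, next to 0.11 for Apoa2. It was at 250, 271 and 260 CPM in females on chow, 290, 243 and 296 CPM in females on statin, 213, 189 and 220 CPM in males on chow and 190, 199 and 221 CPM in males on statin. Every female liver was above every male liver. The log2 change of females against males was 0.33 on chow (standard error 0.12, unadjusted p = 0.0215, adjusted p = 0.119, edgeR) and 0.44 on statin (standard error 0.12, unadjusted p = 0.00387, adjusted p = 0.0561, edgeR). DESeq2 gave adjusted p-values of 0.0336 and 0.00494. The statin effects were 0.09 in females and -0.03 in males on the log2 scale (standard error 0.12 for each).

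Apob, the gene of the protein that each very-low-density lipoprotein particle carries, was at 5089, 3491 and 4160 CPM in females on chow and at 2924, 7858 and 5789 CPM in females on statin. It was at 4563, 5040 and 6630 CPM in males on chow and at 8584, 4436 and 3607 CPM in males on statin. The groups on statin held both the lowest and the highest livers, and the coefficient of variation was 44.9% and 48.1% there against 18.9% and 20.0% on chow. The log2 change under statin was 0.38 for females and 0.03 for males, with a standard error of 0.37 for each (adjusted p = 0.852 and 1.00, edgeR). With 1 liver left out the female value ranged from 0.03 (without female statin replicate 2) to 0.69 (without female statin replicate 1), and the male value from -0.43 to 0.27.

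Apoe, the ligand of the low-density lipoprotein receptor on remnant particles, had the most counts per liver of the 10 genes. It was at 13019, 11809 and 16691 CPM in females on chow, 12042, 15646 and 15246 CPM in females on statin, 15805, 18708 and 17535 CPM in males on chow and 17203, 14144 and 13707 CPM in males on statin. All pairs of groups compared overlapped. Macrophages also express Apoe, and their summed markers are given above; their part in the Apoe level was not tested. The log2 change under statin was 0.05 for females and -0.21 for males (standard error 0.18 for each, adjusted p = 0.985 and 1.00, edgeR).

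Apoc1, an inhibitor of lipoprotein uptake and of lipases, lies next to Apoe. It was at 2327, 2938 and 3471 CPM in females on chow, 2976, 2226 and 3179 CPM in females on statin, 3542, 3312 and 2795 CPM in males on chow and 2634, 3653 and 4239 CPM in males on statin. Its log2 change under statin was -0.06 for females and 0.13 for males (standard error 0.22 for each). The groups overlapped in every comparison.

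Apoc3, an inhibitor of lipoprotein lipase, was at 1843, 1992 and 2141 CPM in females on chow and at 2549, 1807 and 2841 CPM in females on statin. It was at 2037, 1750 and 1894 CPM in males on chow and at 1394, 1945 and 2245 CPM in males on statin. Its log2 change with statin was 0.27 in females (standard error 0.20, adjusted p = 0.765, edgeR) and -0.03 in males (standard error 0.20, adjusted p = 1.00, edgeR). With 1 liver left out the female value ranged from 0.14 to 0.43. In females, replicate 2 on statin was again the lowest of its group, as for Apoa4.

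Apoa5, an activator of the hydrolysis of triglyceride by lipoprotein lipase, was at 1235, 1157 and 1486 CPM in females on chow and at 1841, 1375 and 1299 CPM in females on statin. It was at 1850, 1667 and 1172 CPM in males on chow and at 1545, 1542 and 1373 CPM in males on statin. Its log2 change under statin was 0.22 for females and -0.07 for males (standard error 0.19 for each, adjusted p = 0.827 and 1.00, edgeR). With 1 liver left out the female value of Apoa5 ranged from 0.06 to 0.34. Apoc2 had log2 changes of 0.16 and -0.41 with standard errors of 0.42, at about 1 to 2 CPM.

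**Figure D3:**
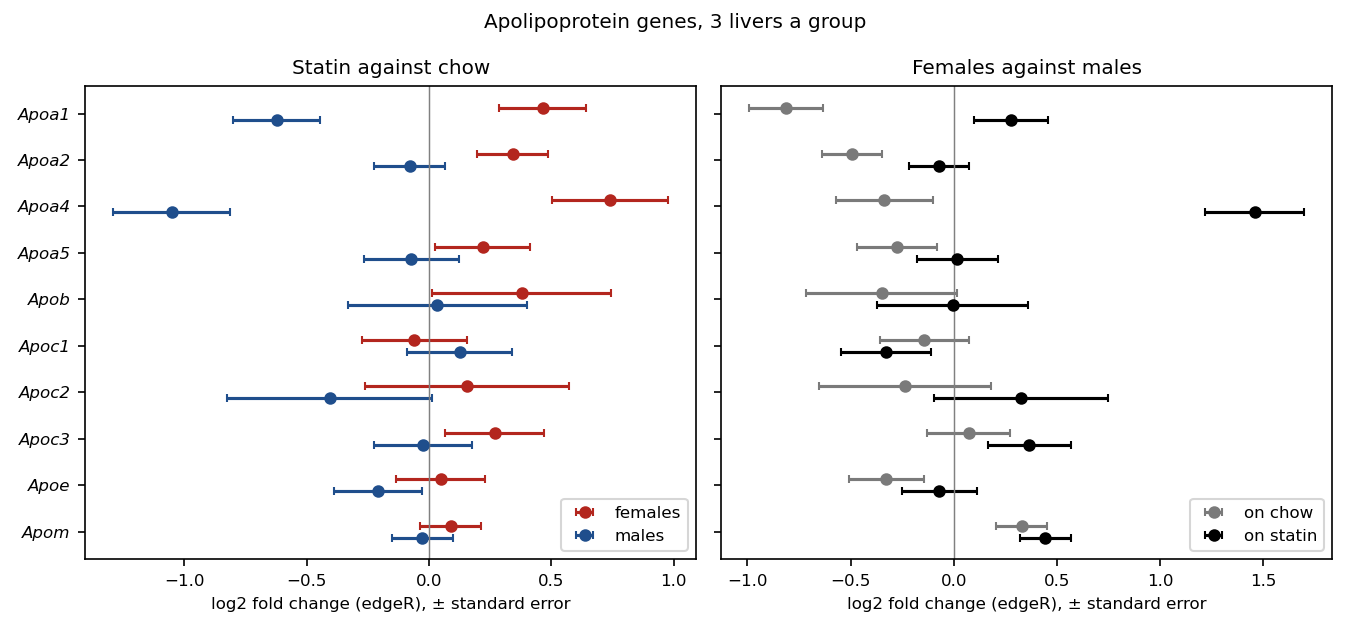
Log2 changes (edgeR) with their standard errors for the 10 apolipoprotein genes, with statin against chow on the left (red, females and blue, males) and females against males on the right (grey, on chow and black, on statin). Apoa4 lies at 0.74 and -1.05 on the left and at -0.34 and 1.46 on the right, and Apoa1 at 0.46 and -0.62 on the left.

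Counted over the 10 genes, 3 were higher with statin in females at an unadjusted p-value under 0.05 (Apoa1, Apoa2 and Apoa4), against 5.93% of all genes, and 0 were lower, against 4.56%. In males 2 were lower (Apoa1 and Apoa4), against 1.11%, and 0 were higher, against 0.844%. The interaction was positive for 2 (Apoa1 and Apoa4), against 4.62%, and negative for 0, against 3.39%. After adjustment in edgeR, 0 of 10 passed 0.05 in each of these, against 0.1% of all genes with statin in females, 0% with statin in males and 0% for the interaction. In limma 0 of 10 passed in each, and in DESeq2 0 passed in females, 1 (Apoa4) in males and 2 (Apoa1 and Apoa4) for the interaction. All statin livers lay above all chow livers for 1 gene in females, against 6.03% of all genes, and below them for 2 genes in males, against 4.3%. All 10 genes were measured in the same livers, so the counts are descriptions.

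In females 9 of 10 genes had a log2 change above 0, against 52.8% of all genes, with a median of 0.24 against 0.01 over all genes. In males 2 of 10 did, against 51%, with a median of -0.08 against 0.00. On chow, 1 of 10 genes was lower in females than in males at an adjusted p-value of 0.05, near the 4.49% of all genes. Groups on chow did not overlap for 1 gene that was higher in females, against 18.5%, and 2 that were lower, against 19.1%. On statin 1 of 10 was higher in females at an adjusted p-value of 0.05, against 4.38%, and 2 did not overlap and were higher, against 11.1%. The median of females against males was -0.30 on chow and 0.15 on statin, against -0.01 for all genes in both.

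The spread of Apob within groups followed the balance of long and short mRNAs in each liver. An index of that balance, chosen after the data had been seen, was the median log2 deviation of 3516 genes of at least 5000 exon bases minus that of 433 genes of at most 1500, without the 10 genes. The index was 0.14, -0.19 and -0.11 in females on chow, -0.40, 0.41 and -0.10 in females on statin, -0.10, 0.05 and 0.27 in males on chow and 0.49, -0.06 and -0.38 in males on statin. The groups on statin held the extremes of both signs.

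With group means removed, Apob, whose exons span 13934 bases, had a Pearson's r of 0.96 with the index over 12 livers (adjusted p = 0.00772 over the 10 genes, exact permutation test within groups, unadjusted p = 0.000772, the smallest its 1296 arrangements allow), with a Spearman's rho of 0.94 (permutation p = 0.00231, adjusted p = 0.0231). Without the 2 livers whose index lay farthest from their group mean, male statin replicate 1 and female statin replicate 2, r was 0.92. Apoc1, of 744 bases, had an r of -0.88 (exact permutation p = 0.00540, adjusted p = 0.0270) and a rho of -0.80 (exact permutation p = 0.0170, adjusted p = 0.0502), with r at -0.76 without those livers. Apoc3, of 1014 bases, had an r of -0.87 (exact permutation p = 0.0270, adjusted p = 0.0900), a rho of -0.85 (exact permutation p = 0.0154, adjusted p = 0.0502) and an r of -0.65 without them. Apoa4 had an r of -0.51 (exact permutation p = 0.272, adjusted p = 0.340) and a rho of -0.29 (exact permutation p = 0.451, adjusted p = 0.511), and r was 0.07 without those livers. Apoe, of 2138 bases, had an r of 0.61 (exact permutation p = 0.0787, adjusted p = 0.131), a rho of 0.76 (exact permutation p = 0.0201, adjusted p = 0.0502) and an r of 0.44 without them. Apoa1 had an r of 0.40 (exact permutation p = 0.230, adjusted p = 0.328), a rho of 0.42 (exact permutation p = 0.221, adjusted p = 0.315) and an r of 0.35 without them.

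Apoa2, the shortest at 537 bases, had an r of -0.34 (exact permutation p = 0.418, adjusted p = 0.418) and a rho of -0.27 (exact permutation p = 0.511, adjusted p = 0.511), with r at -0.23 without those livers. Apoc2 had an r of -0.78 (exact permutation p = 0.0478, adjusted p = 0.120) and a rho of -0.73 (exact permutation p = 0.0494, adjusted p = 0.0988), with r at -0.45. Apom had an r of -0.71 (exact permutation p = 0.0710, adjusted p = 0.131) and a rho of -0.69 (exact permutation p = 0.0833, adjusted p = 0.139), with r at -0.45. Apoa5 had an r of -0.33 (exact permutation p = 0.332, adjusted p = 0.369) and a rho of -0.24 (exact permutation p = 0.500, adjusted p = 0.511), with r at -0.46.

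With the index as a covariate, the standard error of the Apob statin effect was 0.15 in place of 0.37, and its log2 change in females was 0.27 (adjusted p = 0.324, edgeR). Apoa4 kept its signs, with log2 changes of 0.71 in females (adjusted p = 0.0885, edgeR) and -1.10 in males (adjusted p = 0.345, edgeR) and a difference of 1.81 (adjusted p = 0.0538, edgeR). On chow, the female-to-male differences of Apoa1, Apoa2 and Apom had adjusted p-values of 0.00705, 0.0179 and 0.0322 in that fit (edgeR). What sets the index in a liver was not tested.

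**Figure D4:**
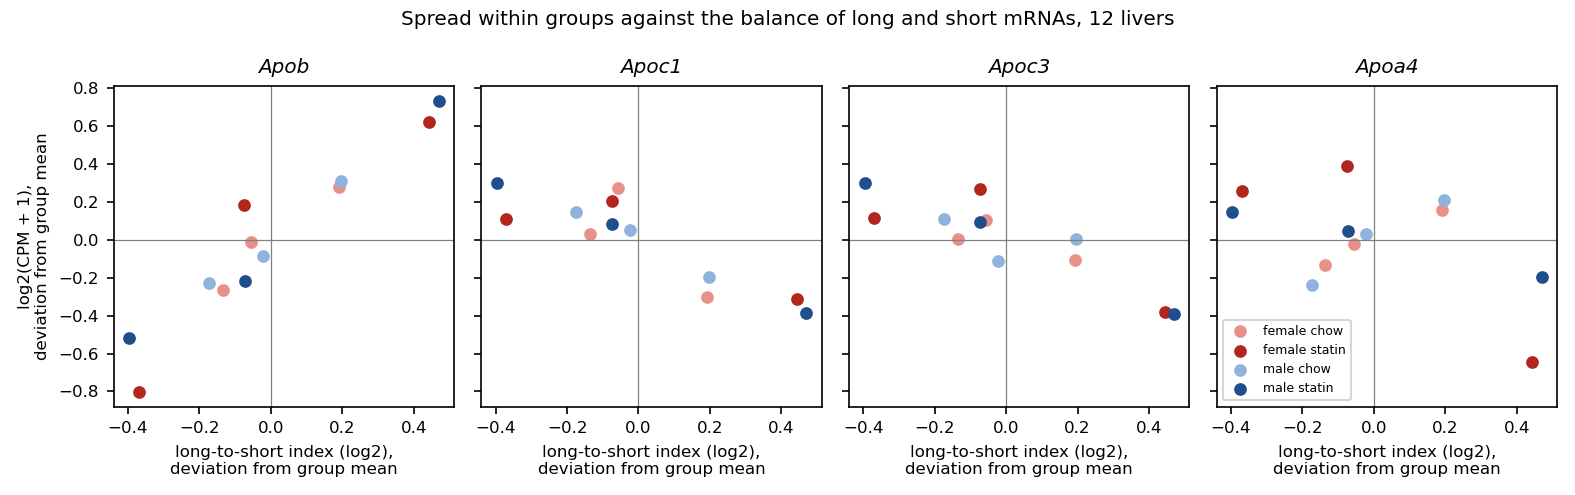
Deviation of log2(CPM + 1) from the group mean (vertical axis) against the deviation of the long-to-short index (log2, horizontal axis) for Apob, Apoc1, Apoc3 and Apoa4, with a point for each of the 12 livers coloured by group. Apob rises with the index (r = 0.96), Apoc1 and Apoc3 fall with it (r = -0.88 and -0.87), and for Apoa4 r is -0.51 with all livers and 0.07 without male statin replicate 1 and female statin replicate 2, the 2 livers farthest right.

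Of 30 transcription factors known to control apolipoprotein genes, all measured, 0 passed an adjusted p-value of 0.05 with statin in either sex or in the interaction in edgeR and in limma. In DESeq2 2 passed in females (Creb3l3 and Nr1h2), 0 in males and 1 in the interaction (Creb3l3). At an unadjusted p-value under 0.05, 1 was higher and 2 were lower in females, against 5.93% and 4.56% of all genes. In males 0 were higher and 0 were lower, against 0.844% and 1.11%, and the interaction was positive for 1 and negative for 1, against 4.62% and 3.39%. Creb3l3, the hepatocyte factor CREB-H that drives Apoa4 and other lipid genes, was at 206, 179 and 230 CPM in females on chow and at 343, 281 and 369 CPM in females on statin. It was at 336, 352 and 346 CPM in males on chow and at 338, 331 and 318 CPM in males on statin. The females on chow lay below every other liver.

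The log2 change of Creb3l3 under statin was 0.69 in females (standard error 0.14, unadjusted p = 0.000274, adjusted p = 0.0951, edgeR) and -0.07 in males (standard error 0.14, adjusted p = 1.00, edgeR), with a difference of 0.76 (unadjusted p = 0.00193, adjusted p = 0.305, edgeR). DESeq2 gave adjusted p-values of 8.68e-05 in females and 0.0150 for the difference, and without female statin replicate 2 the female value was 0.79 (adjusted p = 0.0304, edgeR). That was the 1 pass among 12 fits that left out a liver, over which the female value ranged from 0.60 to 0.79 with adjusted p up to 0.340. On chow Creb3l3 was lower in females than in males by a log2 change of -0.75 (adjusted p = 0.00468, edgeR). Nr1h2, the oxysterol receptor LXR-beta, had a log2 change of -0.34 in females (unadjusted p = 0.00441, adjusted p = 0.218, edgeR), and Mlxipl, the glucose-responsive factor ChREBP, of -0.59 (unadjusted p = 0.00827, adjusted p = 0.261, edgeR). Nr0b2, the repressor SHP, had an interaction of -1.07 (unadjusted p = 0.0287, adjusted p = 0.531, edgeR).

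Of 25 receptors, lipases and transfer proteins, 0 passed an adjusted p-value of 0.05 with statin in either sex or in the interaction, in edgeR, limma or DESeq2. At an unadjusted p-value under 0.05, 2 were higher and 1 was lower in females, against 5.93% and 4.56% of all genes, 1 was higher in males, against 0.844%, and 3 had a positive interaction, against 4.62%. Lcat, the enzyme that ApoA-I activates, was at 360, 296 and 343 CPM in females on chow and at 377, 480 and 670 CPM in females on statin, with a log2 change of 0.61 (unadjusted p = 0.00778, adjusted p = 0.257, edgeR). In males it was at 435, 453 and 482 CPM on chow and at 449, 362 and 349 CPM on statin, and the difference between the effects was 0.85 (unadjusted p = 0.00852, adjusted p = 0.401, edgeR). The female groups did not overlap for Lcat. With 1 liver left out its female effect ranged from 0.38 (without female statin replicate 3, adjusted p = 0.689, edgeR) to 0.79. Lsr, a receptor for remnant particles, had a log2 change of -0.43 in females (adjusted p = 0.405, edgeR), and Lpl, lipoprotein lipase, an interaction of 0.79 (adjusted p = 0.557, edgeR).

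Of 25 genes of lipoprotein assembly and secretion, 24 were measured and 0 passed an adjusted p-value of 0.05 with statin or in the interaction by any of these tools. At an unadjusted p-value under 0.05, 2 were higher in females, against 5.93% of all genes, 1 was lower in males, against 1.11%, and 2 had a positive interaction, against 4.62%. A1cf, the partner of the enzyme that edits Apob mRNA, had a log2 change of 0.38 in females (adjusted p = 0.450, edgeR), and Cidec, a lipid droplet protein at 1.25 CPM in females on chow and 2.95 on statin, of 1.24 (adjusted p = 0.448, edgeR). The value of Cidec was 0.67 without female statin replicate 1. Pdia4, an endoplasmic reticulum folding enzyme, had -0.45 in males (adjusted p = 1.00, edgeR). Ctsz, a lysosomal protease, had an interaction of 0.56 (adjusted p = 0.611, edgeR), which ranged from 0.37 to 0.70 with 1 liver left out.

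Of 20 further apolipoproteins and HDL-associated proteins, 17 were measured and 0 passed an adjusted p-value of 0.05 with statin or in the interaction by the same tools. At an unadjusted p-value under 0.05, 3 were higher in females, against 5.93% of all genes, 2 were lower in males, against 1.11%, and 3 had a positive interaction, against 4.62%. Apol7a and Apol9a, members of the ApoL family, had log2 changes of 0.84 (adjusted p = 0.288, edgeR) and 0.64 (adjusted p = 0.382, edgeR) in females. With 1 liver left out the value of Apol7a ranged from 0.40 (without female statin replicate 3) to 1.09, and that of Apol9a from 0.47 to 0.97 (without female chow replicate 3). They belong to a family of similar genes whose reads may be shared. In males Apobr, a macrophage receptor for ApoB particles, had -0.82 at 2.00 CPM on chow and 1.14 on statin, and Lcn2, a lipocalin of the acute phase, had -0.91 at 16.4 and 8.76 CPM (adjusted p = 1.00 for both, edgeR).

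The 12 sterol-responsive targets of SREBP-2, the factor that a fall in cholesterol activates, included 0 genes at an unadjusted p-value under 0.05 with statin in either sex or for the interaction (edgeR), and 0 passed after adjustment in edgeR, limma or DESeq2. Their median log2 change under statin was -0.21 for females and 0.15 for males, against 0.01 and 0.00 for all genes. On chow 3 of the 12 were higher in females than in males at an adjusted p-value of 0.05, against 5.96% of all genes, and 0 were lower, against 4.49%.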

How the data were processed

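RNA from 12 mouse livers in 4 groups of 3 was sequenced by the study as 50-base read pairs from a strand-specific kit. Per the labels, the authors aligned reads to GRCm38 with STAR 2.4.1a, counted them on genes with HTSeq (strand setting not given in the sources used here) and used edgeR 3.28.1. The deposited count table, described as TMM-normalized, held whole counts for 11968 genes. The deposited CPM table held CPM, each count scaled to the same total in every liver, before any filter, for 48526 genes, and 100% of its values gave whole reads (within 0.01). The 2 tables differed in 0 values, and the filter, over 1 CPM in at least 6 livers, matched the table.

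Counts were fitted with edgeR 4.0.16 in R 4.3.3 (quasi-likelihood, TMM, all 4 groups in 1 fit, no covariate, two-sided). The TMM factors were 0.924 to 1.05. P-values were adjusted by Benjamini-Hochberg over 11968 genes. Standard errors were obtained by dividing the size of the log2 change by the root of F. Levels are CPM after TMM scaling, except those of the cell type markers, which are CPM before it. Levels per kilobase divide by all exon bases of the gene in GENCODE vM21. Alternatives used limma 3.58.1 and DESeq2 1.42.0, and figures Python 3.11.15 and matplotlib 3.10.9. The fits were also run on simulated counts, and the results of that are not given here. The labels' replicate numbers name livers; nothing else says how cages or litters were spread, so p-values measure the spread between these livers. No pair of livers of the same group was alike within sampling noise.

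The 10 genes and the gene lists were chosen with earlier results of these data known. Genes of each list are named when among the 4 with the smallest p-value under 0.05 in a statin comparison or the interaction. One such gene is not reported here. The 5 genes most like Apoa4 were searched among 7640 genes whose mean was 10 CPM or more.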

Additional observations from a re-analysis of the deposited data

Results flagged for a closer look

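The statin effects of Apoa4 in females and males differed by 1.79 on the log2 scale (unadjusted p = 0.000172, adjusted p = 0.172, edgeR), with 2 of 3 females on statin above all females on chow and 3 of 3 males on statin below all males on chow. The statin effects of Apoa1 differed by 1.09 (unadjusted p = 0.00100, adjusted p = 0.277, edgeR), with 2 of 3 females on statin above all females on chow and 3 of 3 males on statin below all males on chow. Both were noted because the test of the difference itself had an unadjusted p-value under 0.05 with a positive sign, which 4.62% of all genes had, and neither passed after adjustment in edgeR on the filtered table. Both passed in DESeq2 (adjusted p = 0.000234 for Apoa4 and 0.00537 for Apoa1), and Apoa4 passed in edgeR without a filter on low counts (adjusted p = 0.00212). Groups of 3 livers were not searched for single outlying livers.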

How the results depend on the processing

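For the 10 genes over all comparisons, 512 of 535 values under other settings and 569 of 600 values with 1 liver left out kept their direction and their side of an adjusted p-value of 0.05. The cause of the changes below was not tested. The number of genes at an adjusted p-value under 0.05 depended on the method. With statin in females (12 in edgeR) it was 148 without a filter on low counts, 5 with a stricter filter, 270 with DESeq2, 0 with only the groups compared and 383 with the long-to-short index as a covariate. With 1 liver left out it ranged from 0 (without female chow replicate 2, female statin replicate 3, any male on chow or male statin replicate 2 or 3) through 1, 2 and 16 (without male statin replicate 1, female chow replicate 1 and female chow replicate 3) and 62 (without female statin replicate 1) to 75 (without female statin replicate 2). In males (0) it was 4 with DESeq2 and 0 with each liver left out, and 234 genes had an unadjusted p-value under 0.05. In the interaction (0, with 959 at an unadjusted p-value under 0.05) it was 103 without a filter and 122 with DESeq2, and 0 to 14 with 1 liver left out, the highest without female statin replicate 2. Between the sexes on chow (1250) it was 771 with the stricter filter, 1946 with DESeq2, 2151 with only the groups compared, 3145 with the index and 635 to 1586 with 1 liver left out, the lowest without male chow replicate 1. On statin (751) it was 357, 1284, 292 and 2194 in the same order, and 378 to 743, the lowest without male statin replicate 2. Scaling by library size alone moved the median of all genes on statin from -0.01 to -0.10, the calls on statin from 524 higher and 227 lower to 356 and 327, and those on chow from 713 and 537 to 565 and 653.

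Some effects near 0 changed sign. The male effect of Apob was -0.0503 in limma with either pseudocount, and its difference between the sexes on statin was 0.0436 with the stricter filter, 0.0174 with the replicate block and 0.0706 with the index. The chow difference of Apoc3 was -0.0166 with the index, and the statin difference of Apoa5 was -0.0635 with library size alone, -0.0102 without a filter and -0.0076 with the index. With 1 liver left out, log2 changes in females ranged from -0.19 to 0.0907 for Apoc1, -0.0874 to 0.49 for Apoc2 and -0.0477 to 0.21 for Apoe. In males they ranged from -0.24 to 0.0664 for Apoa5, -0.43 to 0.27 for Apob, -0.0332 to 0.29 for Apoc1, -0.18 to 0.15 for Apoc3 and -0.0904 to 0.0200 for Apom. The interaction of Apob ranged from -0.0057 to 0.81. Female-to-male differences on statin ranged from -0.17 to 0.0156 for Apoa2, -0.16 to 0.11 for Apoa5, -0.36 to 0.46 for Apob, -0.00059 to 0.64 for Apoc2 and -0.15 to 0.0395 for Apoe. With the counts of Alb left out of the total, the share of the 10 genes was 3.82%, 4.50%, 5.07% and 4.35% in females on chow, females on statin, males on chow and males on statin.

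Livers numbered alike in the labels are different mice, and their deviations from the group means had a mean correlation of -0.11 over 18 pairs (-0.75 to 0.67), against 0.06 for livers with different numbers, so the numbers were not read as pairs. With the replicate block in the fit, 5 genes passed in females, 0 in males, 0 in the interaction, 901 between the sexes on chow and 570 on statin. For Apoa4 the female, male and interaction effects kept their signs with the block and did not pass.

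With 3 livers a group, limits for the genes other than Apoc2 came from the spread between livers and not from depth. Apoc2 lay nearest to the floor for counting error. Its coefficient of variation within groups was 10.6% to 45.3%, and the part of depth in it was not tested. Overlapping gene models limit Apoc2, and antisense models with an unknown strand setting limit Apoa4 and Apoa5.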

Other observations

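The 5 genes whose log2 level was most like that of Apoa4 over the 12 livers, among 7640 genes, were H2-T23, a non-classical MHC gene (Pearson's r 0.91), Galk1, galactokinase (0.87), Rab1b, a GTPase of transport from the endoplasmic reticulum to the Golgi (0.85), Tubgcp2, a component of the gamma-tubulin complex (0.83), and Snx8, a sorting nexin (0.83). Their Spearman's rho values were 0.83, 0.85, 0.84, 0.89 and 0.78. They were picked as the highest of all genes searched, so these values are descriptions. The livers share group, depth and scaling. Galk1 was at a mean of 48.6 CPM in females on chow, 66.1 in females on statin, 56.8 in males on chow and 44.9 in males on statin. H2-T23 was at 227, 270, 245 and 211 CPM in the same order.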
